A study of Mus musculus with 2 samples.

Results

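The heavy chain variable segments, or Ighv genes, were taken as every row of the deposited expression table whose mouse Ensembl identifier carries a symbol beginning with Ighv in GENCODE M21, all families, genes and pseudogenes included. There were 185 such rows of 53873 in all, with 183 different symbols in 16 numbered families. Of these, 113 are annotated as variable genes, 70 as variable pseudogenes and 2 with a separate segment type on the opposite strand. RNA was sequenced from cells labelled Lig4-/- CH12F3 and from the parent line CH12F3, mouse lymphoma B cells known for IgM expression and for switching to IgA. Lig4 encodes DNA ligase IV, which seals broken ends in nonhomologous end joining. Each line gave 1 library, made from 5 µg of total RNA with an Illumina TruSeq kit from cells grown in RPMI with 10% serum. The labels name no agent, time point or clone, and no mouse strain for either line. With 1 library per group there is no spread between replicates, so every difference is a description of these libraries without a test.

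A heavy chain gene is assembled in a developing B cell by joining 1 variable (V), a diversity (D) and a joining (J) segment, and the joined exon is spliced to a constant region such as that of IgM (Ighm). The V segments form a long array upstream of the D, J and constant segments, and joining deletes the DNA between the chosen V and D segments on that chromosome, while V segments on the far side stay. Every V segment carries its own promoter with an octamer element, and after joining it comes under the heavy chain enhancers, so a clonal B cell line makes most of its heavy chain message from a single V segment. The V exon encodes 3 framework stretches (FR1 to FR3) and the first 2 complementarity-determining regions (CDR1 and CDR2), loops that contact antigen.

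In both libraries nearly all Ighv signal lay on 3 segments of family 1, Ighv1-53, Ighv1-55 and Ighv1-72, whose V exons are close copies of each other. Their coding bases are given first, from the start of FR1 to the end of the exon, from GENCODE M21 transcripts on GRCm38. With them stand Ighv1-62-3, which is nearly identical to Ighv1-72 but had little signal, Ighv1-64, which had the next highest level, and the chromosomal neighbours Ighv1-54 and Ighv8-6. Capitals in Ighv1-53 mark bases at which any of the next 5 segments differs from it, and capitals in those 5 mark their differences from Ighv1-53. Ighv8-6 belongs to another family, needs gaps to align and carries no capitals.
Ighv1-53 (chr12:115158403-115158696, minus strand): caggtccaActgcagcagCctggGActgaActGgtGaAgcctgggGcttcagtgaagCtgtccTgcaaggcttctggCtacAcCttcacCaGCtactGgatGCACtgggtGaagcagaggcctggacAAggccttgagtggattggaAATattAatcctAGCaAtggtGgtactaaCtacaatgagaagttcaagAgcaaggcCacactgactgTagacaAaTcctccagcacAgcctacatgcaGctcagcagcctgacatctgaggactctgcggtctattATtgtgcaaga
Ighv1-55 (chr12:115208095-115208388, minus strand): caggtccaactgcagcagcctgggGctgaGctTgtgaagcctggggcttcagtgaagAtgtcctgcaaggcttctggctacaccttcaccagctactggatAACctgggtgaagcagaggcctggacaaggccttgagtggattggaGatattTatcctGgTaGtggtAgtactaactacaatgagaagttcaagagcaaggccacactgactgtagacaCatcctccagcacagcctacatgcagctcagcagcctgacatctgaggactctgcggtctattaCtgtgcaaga
Ighv1-72 (chr12:115757984-115758277, minus strand): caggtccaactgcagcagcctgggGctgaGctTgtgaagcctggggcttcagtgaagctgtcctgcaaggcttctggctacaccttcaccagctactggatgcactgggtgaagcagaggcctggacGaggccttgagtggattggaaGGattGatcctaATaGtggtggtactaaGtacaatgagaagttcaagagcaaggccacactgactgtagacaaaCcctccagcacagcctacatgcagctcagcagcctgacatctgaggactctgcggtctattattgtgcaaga
Ighv1-62-3 (chr12:115460999-115461292, minus strand): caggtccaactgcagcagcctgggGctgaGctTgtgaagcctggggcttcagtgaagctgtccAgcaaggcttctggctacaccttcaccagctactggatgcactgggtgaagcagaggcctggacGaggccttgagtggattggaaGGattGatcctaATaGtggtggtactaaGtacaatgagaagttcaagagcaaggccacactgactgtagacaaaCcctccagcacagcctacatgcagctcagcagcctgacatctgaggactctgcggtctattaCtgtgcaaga
Ighv1-64 (chr12:115507545-115507838, minus strand): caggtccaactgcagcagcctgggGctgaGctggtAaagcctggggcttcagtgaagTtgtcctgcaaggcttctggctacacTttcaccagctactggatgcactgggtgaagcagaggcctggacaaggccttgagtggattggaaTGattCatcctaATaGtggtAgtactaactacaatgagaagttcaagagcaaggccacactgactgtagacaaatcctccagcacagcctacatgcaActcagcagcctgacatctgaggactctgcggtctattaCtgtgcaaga
Ighv1-54 (chr12:115193675-115193968, minus strand): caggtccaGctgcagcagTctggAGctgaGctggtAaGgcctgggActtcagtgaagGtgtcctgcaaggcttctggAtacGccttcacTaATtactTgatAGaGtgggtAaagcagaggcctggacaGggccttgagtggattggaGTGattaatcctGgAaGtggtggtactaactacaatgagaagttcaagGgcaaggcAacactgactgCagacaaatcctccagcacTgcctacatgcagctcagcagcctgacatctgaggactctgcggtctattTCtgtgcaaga
Ighv8-6 (chr12:115165781-115166077, minus strand): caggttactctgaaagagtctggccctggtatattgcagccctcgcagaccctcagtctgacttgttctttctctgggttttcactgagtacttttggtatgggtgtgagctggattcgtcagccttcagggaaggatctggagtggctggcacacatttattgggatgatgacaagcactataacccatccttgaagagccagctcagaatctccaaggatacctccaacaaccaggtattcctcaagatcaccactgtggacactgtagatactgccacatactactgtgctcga

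Of these 294 bases, Ighv1-72 differed from Ighv1-53 at 12, Ighv1-62-3 and Ighv1-64 at 14 each, Ighv1-55 at 15 and Ighv1-54 at 32. The differences of the nearest copies were gathered in CDR2, which spans 51 of the bases. CDR2 held 7 of the 12 differences of Ighv1-72, 7 of the 14 of Ighv1-64 and 6 of the 15 of Ighv1-55. CDR1 was the same as in Ighv1-53 in Ighv1-72, Ighv1-62-3 and Ighv1-64, whereas Ighv1-55 differed there at 3 bases. Over the 64 other family 1 segments with an exon of the same length, the number of differing bases ran from 12 to 64 with a median of 37.5. The printed bases are those of the reference genome, and the variable exon of the cells may differ from them.

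The deposited values are FPKM, fragment counts divided by transcript length and library size. How length was treated in short rows such as the V segments is not named in the sources, so comparisons of level between genes are approximate. The deposited values summed to 962435 in the library labelled Lig4-/- and to 1020856 in the CH12F3 library. Lig4 was listed at 0.64 FPKM in the library labelled Lig4-/- and at 0.13 FPKM in the CH12F3 library. The listed value of the targeted gene was thus not lower where the label says it is lost. Both values were under 1 FPKM and do not tell whether the gene was lost. Every direction here therefore rests on the label alone. All 7 B cell markers were expressed, with sums of 10281 FPKM in the library labelled Lig4-/- and 6577 FPKM in the CH12F3 library, of which Ighm made 9325 and 5142 FPKM in the same libraries. Without Ighm the order was the opposite, with sums of 956.2 FPKM in the library labelled Lig4-/- and 1434 FPKM in the CH12F3 library, and single markers went both ways. Ms4a1, which encodes CD20, was at 22.7 FPKM in the library labelled Lig4-/- and 3.28 FPKM in the CH12F3 library, while the lower values of Cd79b in the library labelled Lig4-/- are given below with the receptor genes. The 5 T cell markers summed to 4.60 and 8.99 FPKM in the same order, and the 5 myeloid markers to 9.77 and 5.25 FPKM with Cd14 at 0 in both. The 5 plasma cell markers summed to 230.8 FPKM in the library labelled Lig4-/- and 259.9 FPKM in the CH12F3 library, most of it Xbp1 at 149.9 and 193.4 FPKM in the same order. Prdm1, which encodes the plasma cell regulator Blimp-1, was at 21.3 FPKM in the library labelled Lig4-/- and 7.08 FPKM in the CH12F3 library, a log2 ratio of 1.46, where Sdc1 was under 0.1 FPKM in both. The 5 progenitor markers were nearly silent, with Rag1, Rag2 and Igll1 at 0 in both libraries and sums of 0.050 and 0.25 FPKM. Read depth was not among the sources, so no value carries a counting interval.

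Only 16 of the 185 variable segments, 8.65%, were above 0 FPKM in either library, against 38.1% of all 51912 mouse identifiers. The other 169 were listed at 0 in both. In the library labelled Lig4-/- 14 segments were above 0, and in the CH12F3 library 10 were. An FPKM of 0 can be a failed estimate, so these counts describe the listed values and not the absence of a transcript. Of the 70 pseudogenes 4 were above 0, and of the 115 other segments 12 were.

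**Figure D1:**
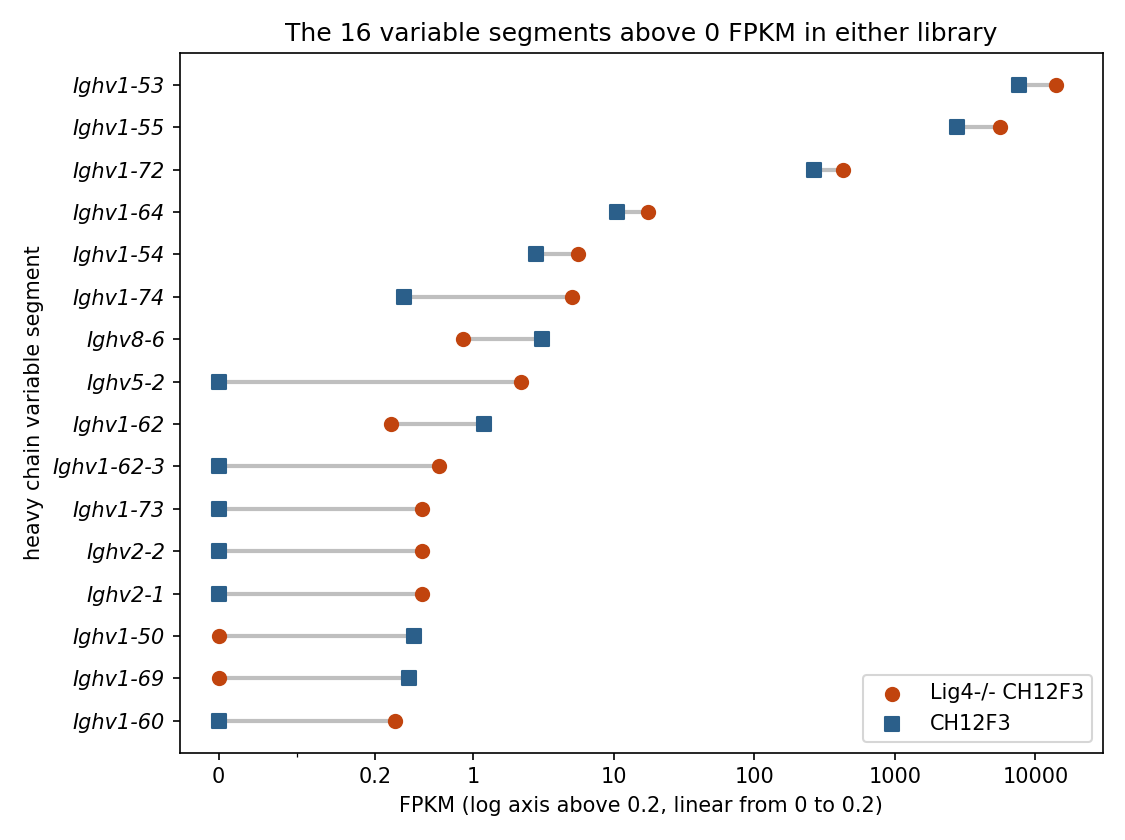
FPKM of the 16 heavy chain variable segments above 0 in either library, 1 row per segment, with circles for the library labelled Lig4-/- and squares for the CH12F3 library, on an axis that is logarithmic above 0.2 FPKM and linear under it. Ighv1-53, Ighv1-55 and Ighv1-72 stand far above the rest in both libraries, and 8 segments sit at 0 in 1 library.

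The summed level of the Ighv rows was 19979 FPKM in the library labelled Lig4-/- and 10763 FPKM in the CH12F3 library, a 1.86-fold difference. In bulk RNA, a larger share of cells with such a transcript and more of it per cell cannot be told apart. The rows held 2.08% of all FPKM in the library labelled Lig4-/- and 1.05% in the CH12F3 library. Ighv1-53, Ighv1-55 and Ighv1-72 together made 99.8% of the Ighv sum in each library. The other 182 rows added up to 33.6 FPKM in the library labelled Lig4-/- and 18.7 FPKM in the CH12F3 library.

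Ighv1-53 (ENSMUSG00000093894, chr12:115158403-115158835, minus strand), the leading segment, was at 13919 FPKM in the library labelled Lig4-/- and 7699 FPKM in the CH12F3 library. It ranked 2 among all rows in the library labelled Lig4-/- and 9 in the CH12F3 library. The difference was 1.81-fold, and the log2 ratio, taken after adding 1 FPKM to each value here and below, was 0.85. It was thus within 2-fold, the difference used as a rule of size here.

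Ighv1-55 (ENSMUSG00000095589, chr12:115208095-115208591) lies 49.7 kb further from the constant genes. It was at 5601 FPKM in the library labelled Lig4-/- and 2781 FPKM in the CH12F3 library, 2.01-fold higher. Its log2 ratio of 1.01 sat at the 2-fold line, and fell to 0.84 when the median of all expressed genes was set to 0 and to 0.93 after adjustment for transcript GC content. Relative to Ighv1-53 it stood at 40.2% in the library labelled Lig4-/- and 36.1% in the CH12F3 library.

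Ighv1-72 (ENSMUSG00000096074, chr12:115757984-115758461) lies 599.6 kb beyond Ighv1-53. It was at 425.4 FPKM in the library labelled Lig4-/- and 265.3 FPKM in the CH12F3 library, 1.60-fold higher with a log2 ratio of 0.68. It amounted to 3.06% of Ighv1-53 in the library labelled Lig4-/- and 3.45% in the CH12F3 library. The order Ighv1-53, Ighv1-55, Ighv1-72 was thus the same in both libraries, at close to the same proportions.

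Message of the V segments and of the IgM constant region stood in nearly the same proportion in both lines. The Ighv sum was 2.14 times the FPKM of Ighm in the library labelled Lig4-/- and 2.09 times in the CH12F3 library, and Ighv1-53 alone was 1.49 and 1.50 times Ighm in the same order. The size of these multiples is uncertain, since FPKM is only approximate between genes, and they do not count molecules. Ighm was at 9325 FPKM in the library labelled Lig4-/- and 5142 FPKM in the CH12F3 library, 1.81-fold higher. Igha, the IgA constant gene to which this line can switch, was at 331.4 FPKM in the library labelled Lig4-/- and 522.2 FPKM in the CH12F3 library. Over all 8 heavy chain constant genes the Ighv sum was 2.06 times their sum in the library labelled Lig4-/- and 1.89 times in the CH12F3 library.

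Below the leading 3, levels dropped by more than an order of magnitude. Ighv1-64 (ENSMUSG00000094088) was at 17.5 FPKM in the library labelled Lig4-/- and 10.5 FPKM in the CH12F3 library, with a log2 ratio of 0.68. Ighv1-54 (ENSMUSG00000094787) was at 5.56 FPKM in the library labelled Lig4-/- and 2.79 FPKM in the CH12F3 library, with a log2 ratio of 0.79. These kept the same order as the leading 3, with the higher value in the library labelled Lig4-/-.

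The other 3 expressed segments, meaning a mean of at least 1 FPKM over both libraries, were the furthest apart and the lowest. Ighv1-74 (ENSMUSG00000094124) was at 5.01 FPKM in the library labelled Lig4-/- and 0.32 FPKM in the CH12F3 library, with a log2 ratio of 2.19. Ighv5-2 (ENSMUSG00000076633), among the segments nearest to the D segments, was at 2.20 FPKM in the library labelled Lig4-/- and at 0 in the CH12F3 library, against which a fold has no meaning. Ighv8-6 (ENSMUSG00000094505), the neighbour 7.37 kb from Ighv1-53, went the other way, at 0.85 FPKM in the library labelled Lig4-/- and 3.10 FPKM in the CH12F3 library, with a log2 ratio of -1.15.

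Of the 8 expressed Ighv segments, 3 (37.5%) exceeded 2-fold upward in the library labelled Lig4-/- after adding 1 FPKM, and 1 (12.5%) exceeded it downward. Among all 11437 expressed genes 21% were higher by that rule and 4.09% lower. The 3 were Ighv1-55 at the line, Ighv1-74 and Ighv5-2, and the 1 was Ighv8-6. Ighv1-74, Ighv5-2 and Ighv8-6 were each under 1 FPKM in 1 library and passed the filter only through the other. At low levels the filter thus favours segments that lie apart, so these shares are a description and no support for a difference. The call of Ighv5-2, at 0 in the CH12F3 library, rests on the added 1 FPKM. The median log2 ratio of the 8 was 0.82, and that of all expressed genes was 0.17. The GC content of the 8 transcripts, between 48.6% and 52.5%, lay near the median of 49.8% of all expressed genes, and their median stayed at 0.82 after adjustment for GC content. Expressed genes in that GC range had a median of 0.04.

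**Figure D2:**
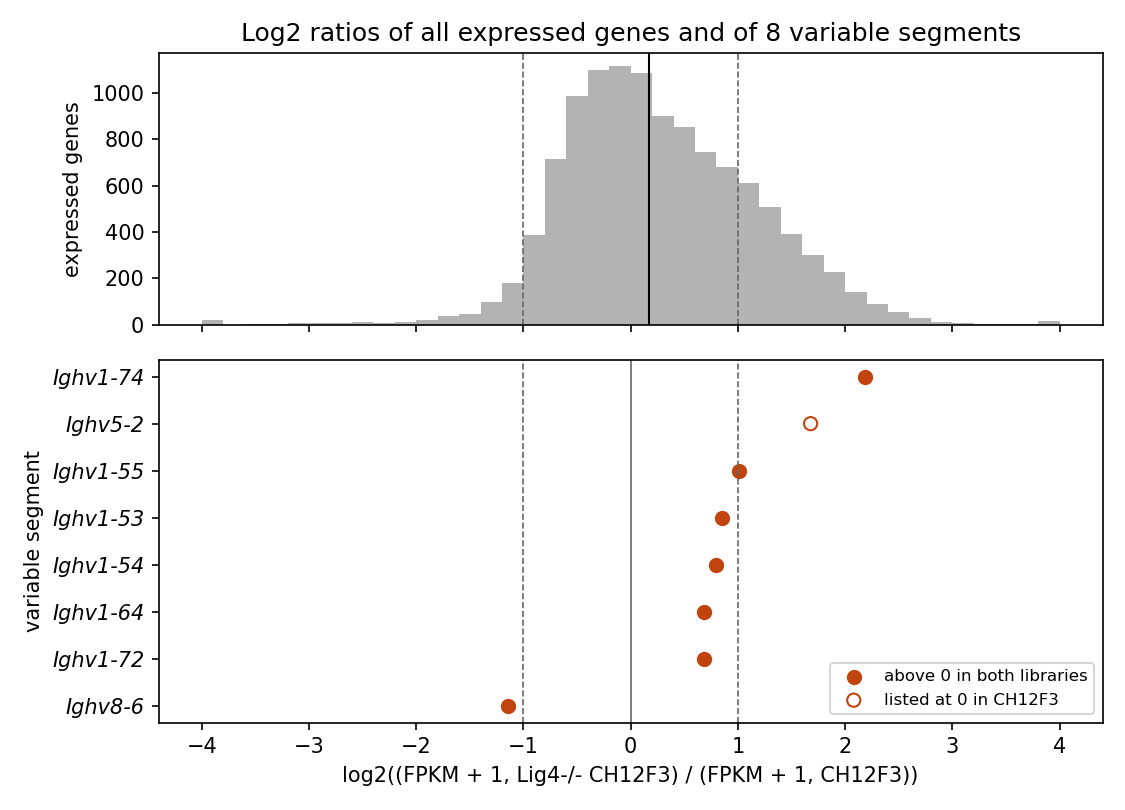
Histogram of the log2 ratios of all 11437 expressed genes, with values beyond 4 placed in the end bins and a solid line at their median of 0.17, above the log2 ratios of the 8 expressed variable segments, where dashed lines mark 2-fold and the open circle is a segment listed at 0 in the CH12F3 library. Of the 8 segments 7 lie to the right of 0, from Ighv1-72 at 0.68 to Ighv1-74 at 2.19, and Ighv8-6 lies at -1.15.

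The remaining 8 segments above 0 had low values, from 0.26 to 1.19 FPKM, and 7 of them were listed at 0 in 1 library. Ighv1-62, a pseudogene, was at 0.26 FPKM in the library labelled Lig4-/- and 1.19 FPKM in the CH12F3 library. Ighv1-62-3 at 0.57 FPKM, Ighv1-73, Ighv2-1 and Ighv2-2 at 0.43 FPKM each and Ighv1-60 at 0.28 FPKM were above 0 in the library labelled Lig4-/- and at 0 in the CH12F3 library. Ighv1-50 at 0.38 FPKM and Ighv1-69 at 0.35 FPKM were at 0 in the library labelled Lig4-/- and above 0 in the CH12F3 library. With Ighv5-2, 6 of 185 segments (3.24%) were above 0 in the library labelled Lig4-/- alone, against 4.77% of all genes, and 2 (1.08%) in the CH12F3 library alone, against 2.69%. These shares are over all rows, of which 8.65% of the segments and 38.1% of the mouse identifiers were above 0. They therefore do not show that single-library values were rarer among segments above 0. Of the 16 segments above 0, 8 were above 0 in both libraries. Ighv5-2 was the single segment at 0 in 1 library and at least 1 FPKM in the other, as were 0.172% of all genes in that direction.

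By family, family 1 held 93 of the 185 rows, 12 of the 16 above 0 and 99.98% and 99.97% of the Ighv FPKM in the library labelled Lig4-/- and the CH12F3 library. Family 5, with 22 rows, had only Ighv5-2 above 0, family 8, with 16 rows, only Ighv8-6, and family 2, with 11 rows, Ighv2-1 and Ighv2-2. All rows of the other 12 families were at 0 in both libraries. These included family 3 with 8 rows, family 6 with 7, and family 14 with 4, whose median identity to the V exon of Ighv1-53 was 79.3%, the nearest after family 1.

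Segments most alike to Ighv1-53 were those most often above 0. Identity was measured over the aligned V exon, 305 bases long in Ighv1-53. All 6 segments with at least 94% identity were above 0, in order Ighv1-72 (96.1%), Ighv1-62 (95.7%), Ighv1-64 (95.4%), Ighv1-55 and Ighv1-62-3 (95.1% each) and Ighv1-74 (94.1%). Of the 5 with 91 to 94% identity, Ighv1-69 (93.1%) and Ighv1-50 (91.5%) were above 0, while Ighv1-59 (92.1%), Ighv1-61 (91.8%) and Ighv1-52 were not. Between 88 and 91% it was 2 of 20, Ighv1-54 and Ighv1-73, both at 89.2%. Between 85 and 88% it was 0 of 22, between 70 and 85% 1 of 42, and under 70% 4 of 89. The relation is across segments that share a locus and descent, and is a description.

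**Figure D3:**
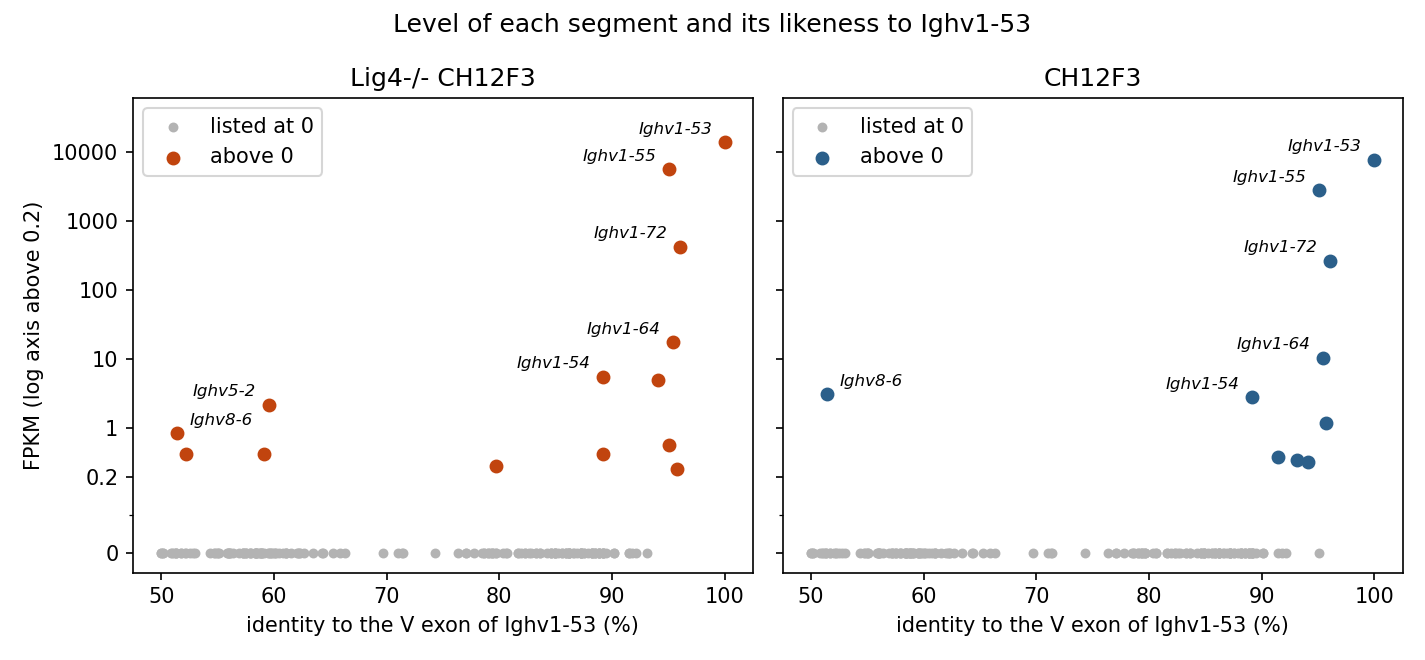
FPKM of each segment (vertical axis, logarithmic above 0.2) against the percent identity of its V exon to that of Ighv1-53, for segments aligned over at least 290 bases, in the library labelled Lig4-/- on the left and the CH12F3 library on the right, with grey points for segments listed at 0. High values lie at the right edge, above 94% identity, and single low points such as Ighv8-6 and Ighv5-2 lie under 60%.

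Likeness to Ighv1-53 did not order the levels within the close group. Ighv1-55 and Ighv1-62-3 each differed from Ighv1-53 at 15 of 305 bases, yet Ighv1-55 was at 5601 FPKM in the library labelled Lig4-/- and 2781 FPKM in the CH12F3 library, whereas Ighv1-62-3 was at 0.57 and 0 FPKM in the same order. Ighv1-62-3 and Ighv1-72 differed from each other at only 3 of 305 bases and were at 0.57 and 425.4 FPKM in the library labelled Lig4-/-, and at 0 and 265.3 FPKM in the CH12F3 library. In these copies the treatment of fragments that match several segments decides which row receives them, and that treatment is not named in the sources. Of the 50-base windows of the annotated transcripts, 128 of 302 (42.4%) in Ighv1-53 occurred in no other heavy chain locus gene, 239 of 366 (65.3%) in Ighv1-55 and 26 of 347 (7.49%) in Ighv1-72. Ighv1-72 shared 237 windows with Ighv1-62-3 and 67 with Ighv1-53, and Ighv1-55 shared 23 with Ighv1-53. The levels of single close copies are therefore uncertain, and how fragments were divided among them was not tested.

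Low segments under 94% identity ranged from many shared windows to none. Ighv1-69, at 0 FPKM in the library labelled Lig4-/- and 0.35 FPKM in the CH12F3 library, shared 83 of its 302 windows with Ighv1-53, more than any other segment did, and Ighv1-50 shared 36 of 341. Ighv5-2 and Ighv8-6 shared none with it. Ighv5-2 had 304 of 304 windows to itself and 59.5% identity, and Ighv8-6 had 227 of 305 to itself and 51.4% identity. Ighv1-54 shared no window with Ighv1-53 and had 296 of 328 to itself.

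The position of the signal on the chromosome was also uneven. The 185 rows span 2437 kb of chromosome 12, and 183 of them lie on the minus strand. Between Ighv1-53 and the D segments lie 137 rows, of which 4 (2.92%) were above 0 in either library, with sums of 3.06 FPKM in the library labelled Lig4-/- and 0.38 FPKM in the CH12F3 library. Beyond Ighv1-53 lie 47 rows, of which 11 (23.4%) were above 0, with sums of 6057 and 3064 FPKM in the same order. Within family 1 alone it was 1 of 56 on the side of the D segments and 10 of 36 beyond. The close copies of Ighv1-53 also lie beyond it, all 6 with at least 94% identity, so position and likeness move together and cannot be told apart in these counts.

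**Figure D4:**
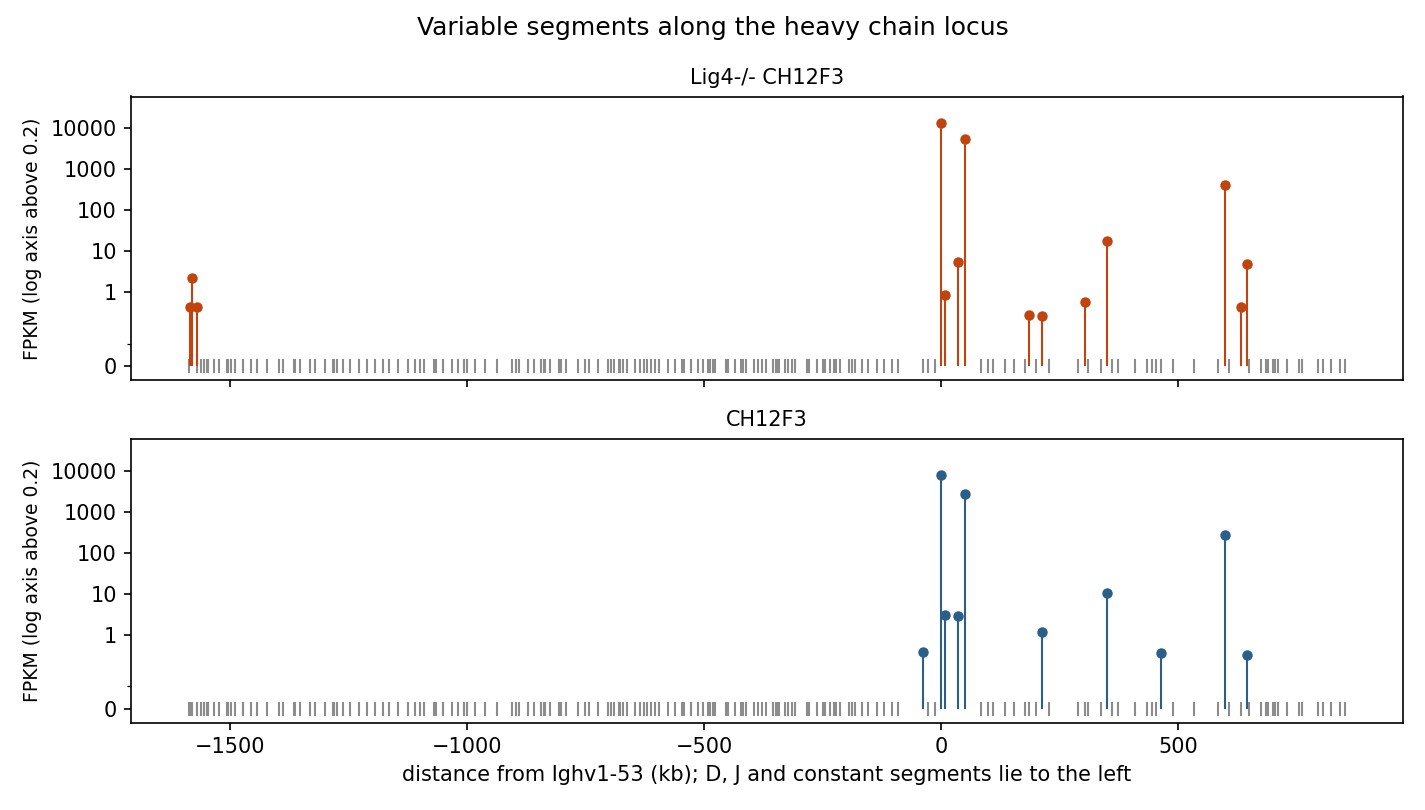
FPKM of the variable segments (logarithmic above 0.2) by distance from Ighv1-53 in kb along chromosome 12, in the library labelled Lig4-/- above and the CH12F3 library below, with D, J and constant segments to the left and grey ticks for segments listed at 0. Signal is grouped at Ighv1-53 and to its right, and in the library labelled Lig4-/- 3 low points lie at the left end.

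The 3 rows on each side of Ighv1-53 ranged over the whole scale. On the side of the D segments, Ighv1-52 and the pseudogene Ighv1-51 were at 0 in both libraries, and Ighv1-50 was at 0 in the library labelled Lig4-/- and 0.38 FPKM in the CH12F3 library. On the far side stood Ighv8-6, Ighv1-54 and Ighv1-55. At the other end of the locus, the neighbours Ighv2-1, Ighv5-2 and Ighv2-2, 1570.1 to 1584 kb from Ighv1-53, were above 0 in the library labelled Lig4-/- and at 0 in the CH12F3 library. They are rows 2 to 4 counted from the D segments.

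The D and J rows gave no value. All 22 D rows and 4 J rows of the heavy chain locus were listed at 0 in both libraries, and these segments are 10 to 100 bases long in the annotation. The joint made by the cells could therefore not be read from the table.

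Variable segments of the light chains were set beside them. Of 160 kappa variable rows 36 (22.5%) were above 0, and their sum was 18642 FPKM in the library labelled Lig4-/- and 13394 FPKM in the CH12F3 library, 1.39-fold higher. The runner-up of the kappa segments stood at 0.0585% of their leader in the library labelled Lig4-/- and 0.0479% in the CH12F3 library, where Ighv1-55 stood at 40.2% and 36.1% of Ighv1-53. The 3 lambda variable rows summed to 91.6 FPKM in the library labelled Lig4-/- and 39.6 FPKM in the CH12F3 library. Igkc, the kappa constant gene, was at 8871 FPKM in the library labelled Lig4-/- and 5818 FPKM in the CH12F3 library, 1.52-fold apart.

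Among 22 genes of heavy chain assembly and use, 15 were expressed, of which 6 exceeded 2-fold upward in the library labelled Lig4-/-, 1 downward and 8 stayed within 2-fold, with a median log2 ratio of 0.75. Over all 11437 expressed genes 21% were beyond 2-fold upward and 4.09% downward, with a median of 0.17. As for the Ighv segments, the filter favours genes that lie apart at low levels. The counts of this list are thus a description and no support for a difference. The recombinase genes Rag1 and Rag2 were at 0 in both libraries, and the polymerase Dntt, which adds bases at the joints, was at 0.05 FPKM in the library labelled Lig4-/- and 0 in the CH12F3 library. The octamer factor Pou2f2 was at 37.1 FPKM in the library labelled Lig4-/- and 21.7 FPKM in the CH12F3 library, and its B cell coactivator Pou2af1 at 126.3 and 112.3 FPKM in the same order. Pou2f1, the widely expressed octamer factor, was at 4.06 FPKM in the library labelled Lig4-/- and 1.06 FPKM in the CH12F3 library, a log2 ratio of 1.30. The signalling partners of the receptor went opposite ways, Cd79a at 331.0 FPKM in the library labelled Lig4-/- and 134.5 FPKM in the CH12F3 library, and Cd79b at 481.1 and 1187 FPKM in the same order. Jchain, which encodes the chain that joins secreted IgM and IgA into polymers, was at 722.2 FPKM in the library labelled Lig4-/- and 78.9 FPKM in the CH12F3 library, a log2 ratio of 3.18. Jchain and Prdm1 were thus higher in the same library as the Ighv, Ighm and Igkc message. The other plasma cell markers were lower there or nearly level. Xbp1 and Sdc1 were lower, Tnfrsf17 was at 1.53 FPKM in the library labelled Lig4-/- and 2.81 FPKM in the CH12F3 library. Irf4 was at 58.1 and 56.5 FPKM in the same order. The part of Jchain and Prdm1 in the Ighv, Ighm and Igkc differences was not tested. Among the 15 genes, the 3 others beyond 2-fold upward were Ighg1, Ighg2b and the IgD constant gene Ighd, all under 6 FPKM in both libraries. In the CH12F3 library Ighg1 was at 0.05 FPKM and Ighd at 0.84 FPKM. Both passed the filter only through the library labelled Lig4-/-, at 5.10 and 5.64 FPKM in the same order.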

How the data were processed

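Expression was measured by RNA sequencing in 1 library per line. The authors deposited FPKM values with 2 decimals, 1 column per library, named for the line. The submitters' processing notes name CASAVA, TopHat and the genome build GRCh38, a human build, whereas 51912 rows carry mouse identifiers, so the build behind the values is uncertain. The quantifier, annotation release, strand setting and handling of fragments with several matches are not stated per the labels. The 1961 rows of assembled loci entered the summed FPKM, the shares of it and the ranks among all rows, and were left out of the counts over genes.

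Symbols, coordinates and sequences came from GENCODE M21 (GRCm38) by identifier, with a symbol for 51633. For counts over all genes 1 row per symbol was kept, and mouse identifiers without a symbol were kept under their identifier (51840 genes). V exons, the last exon of the longest transcript, were aligned with Biopython 1.88 (global, free end gaps), and FR and CDR limits follow Kabat codons. GC adjustment subtracted a lowess curve (fraction 0.3, statsmodels 0.14.6) of log2 ratio on transcript GC content. The ratio, 2-fold call, GC adjustment and identity steps were tested on simulated data, with known changes only in genes of at least 5 FPKM. That simulation did not cover changes at lower levels or the division of fragments among close copies. Adding 1 FPKM understates differences of low genes.

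The members, lists and alternatives were chosen with earlier results of these data known. Named segments were those with a mean of at least 1 FPKM, those at 0 in 1 library and at least 1 FPKM in the other, the 3 neighbours on each side of the leading segment and its 10 nearest in sequence. Other segments above 0, and the pair Ighv1-72 and Ighv1-62-3, were singled out after their values were seen.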

Additional observations from a re-analysis of the deposited data

How the results depend on the processing

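No paired analysis was possible because each group has 1 library, and no library could be left out. Of the 8 expressed segments, 3 were at least 2-fold higher and 1 lower in the library labelled Lig4-/-. These counts became 1 and 0 with a pseudocount of 5 FPKM, with a mean of at least 5 FPKM and with a 4-fold threshold. They were 1 and 1 when each library was rescaled to the same summed Ighv FPKM. With the median of all expressed genes set to 0, with upper quartile scaling and after GC adjustment they were 2 and 1. A mean of at least 5 FPKM left 4 segments by construction. Rescaling to the same Ighv sum removes the shared shift, and gave -0.038 for the median log2 ratio and for Ighv1-53, -0.21 for Ighv1-72 and -0.15 for Ighv1-64. With no expression filter the median of all segments was 0, since most are listed at 0. Without Ighv1-53, an alternative chosen after seeing the data, the Ighv sums were 6060 FPKM in the library labelled Lig4-/- and 3064 FPKM in the CH12F3 library, with a log2 ratio of 0.98 against 0.89 with it. Ighv1-55 was under 2-fold under 4 of 7 settings, at 0.84 with the median of all genes set to 0, 0.95 with upper quartile scaling, 0.93 after GC adjustment and 0.12 at equal Ighv sums. The share held by Ighv1-53 stayed between 69.7% and 71.6% under both alternatives run on it. The unknown depth limits values near 1 FPKM most, among them Ighv1-74, Ighv5-2 and Ighv8-6, which were under 2-fold with a pseudocount of 5 FPKM.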

Other observations

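Between the first and the last variable segment, 40 other annotated rows lie on the same stretch of chromosome 12, and 5 of them were above 0. The long noncoding RNA Gm30948, 104.3 kb beyond Ighv1-53 and on the opposite strand, was at 1.54 FPKM in the library labelled Lig4-/- and 4.30 FPKM in the CH12F3 library, a log2 ratio of -1.06. The processed pseudogene Gm9260, 823.9 kb beyond Ighv1-53, was at 0.17 FPKM in the library labelled Lig4-/- and 2.88 FPKM in the CH12F3 library, a log2 ratio of -1.73. With Ighv8-6, these are the rows of the locus with a mean of at least 1 FPKM that lay beyond 2-fold downward in the library labelled Lig4-/-. The rows at that mean were the 8 expressed Ighv segments, of which 1 was lower, with Gm30948 and Gm9260. So few rows give only a description. Over all expressed genes 4.09% were lower by that rule. Gm9260 and Ighv8-6 passed the filter only through the CH12F3 library. The nearest expressed segments on either side of Gm30948 were Ighv1-55 and Ighv1-64, 49.7 and 349.1 kb beyond Ighv1-53. Both were higher in the library labelled Lig4-/-. Ighv8-6, which was lower there, lies between Ighv1-53 and Gm30948. The segments nearest to Gm30948, Ighv8-7 and Ighv1-57, were at 0 in both libraries. The other 3 of the 5 rows above 0 were Gm5660, Gm19331 and Gm9256, all under 0.2 FPKM in both libraries. These rows were singled out after their values were seen.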
